A study of Danio rerio with 9 samples.

Results

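Poly(A) RNA of whole zebrafish at the first and last of the 4 stages sampled through the hatching period was compared, gene by gene. The first was Prim-25 at 36 hours post-fertilization (hpf), and the last was Protruding-mouth at 72 hpf. All genes with at least 1 RPKM (reads scaled to gene length and to the library's mapped reads) in either library were taken, which gave 16016 of the 29291 genes in the table. Each gene's difference was taken as log2(RPKM + 1) at 72 hpf minus log2(RPKM + 1) at 36 hpf. Genes whose difference was 1 or more in size, a 2-fold difference on this scale, are called higher or lower.

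The animals of both stages were of the AB strain with no treatment named beyond rapid cooling at collection, and each library was made from about 2000 pooled individuals, labelled embryos at both stages. Each stage had 1 library, so no difference was tested and every statement describes these libraries. The libraries were SOLiD fragment libraries, a short-read format sequenced by ligation. Recovered from the values, the mapped reads were 178315623 at 36 hpf and 205507592 at 72 hpf, so that 1 RPKM of a gene of 1 kilobase stood for 178 and 206 reads. The stages between them, Long-pec at 48 hpf and Pec-fin at 60 hpf, played no part in the choice of genes, and their values are set beside the others. In whole animals, fewer cells of a type and less RNA per cell cannot be told apart.

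During the hatching period the zebrafish embryo leaves its chorion with the help of proteases from the hatching gland, while most organs pass from patterning and proliferation to differentiated function. The retina lays down its layers and the photoreceptors build outer segments, the lens fills with crystallins, synapses form throughout the brain, cartilage of the jaw and gill arches appears, and the gut, liver and pancreas begin to make their products. The larva still lives on yolk, and its circulating red cells come from the embryonic wave.

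Of the 16016 genes, 2182 (13.6%) were at least 2-fold higher at 72 hpf and 664 (4.15%) at least 2-fold lower. At 4-fold, 385 genes (2.4%) were higher and 47 (0.293%) lower. The other 13170 genes (82.2%) lay within 2-fold, and the median difference over all genes was 0.12. Higher genes made up 76.7% of those at least 2-fold apart as deposited, and 64.6% (1808 higher, 991 lower) when the 72 hpf library was rescaled by the median of gene ratios (a shift of -0.20 in log2 RPKM). That rescaling moved the median difference over all genes from 0.12 to -0.05. Many lists with 0 lower genes as deposited then had some. Among others, ribosome biogenesis had 8, myosin chains 4, and notochord, translation factors and Fgf signalling 2 each. The inner retina, glia, G protein subunit, LIM homeobox, forkhead and complement lists had 1 each. The share of higher genes was largest among genes of low level. Among genes with a mean of 1 to under 3 RPKM, 18.2% were higher and 1.42% lower. From 10 to under 30 RPKM the shares were 9.69% and 6.74%, from 30 to under 100 RPKM 8.17% and 9.61%, and from 100 RPKM 8.15% and 7.71%.

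**Figure D1:**
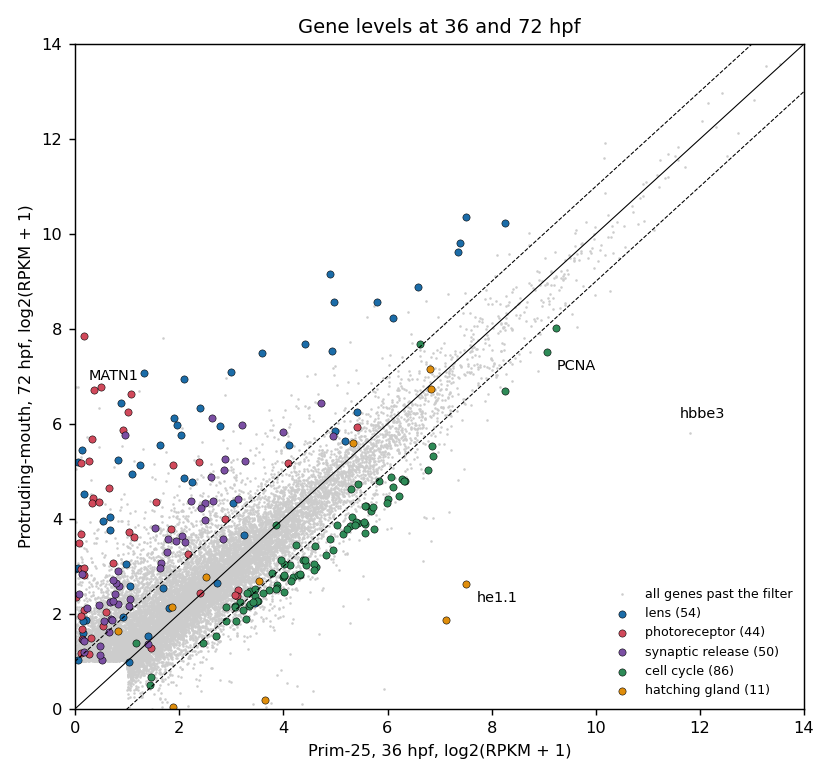
Level of each of the 16016 genes at 36 hpf (horizontal) and 72 hpf (vertical), both in log2(RPKM + 1), with 5 gene lists in colour and the number of members past the filter in brackets. The solid line marks equal levels and the dashed lines a 2-fold difference. Most lens, photoreceptor and synaptic genes lie above the upper line and most cell cycle genes below the lower one.

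A count of 13648 genes reached 1 RPKM at 36 hpf and 15563 at 72 hpf, with 13195 in both. The 2368 genes that reached it at 72 hpf alone were mostly low there, and 66 of them reached 10 RPKM. Of the 453 that reached it at 36 hpf alone, 10 reached 10 RPKM. The filter's edge was narrow, with a gene at 0.786 RPKM at 36 hpf and 1.00049 at 72 hpf just inside, and one at 0.191 and 0.999971 just outside. Stages outside the hatching period show where the counted genes were otherwise expressed. The 385 genes higher by 4-fold had a median of 0.263 RPKM at the 15-somite stage, 1.07 at 36 hpf, 14.4 at 72 hpf and 26 in the 1-week larva. The 664 lower genes had medians of 17, 15.15, 5.07 and 2.53 RPKM at the same 4 stages. The higher genes were thus at their lowest of these stages before the hatching period, and the lower genes were already well expressed then.

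Gene lists for tissues and functions separated by direction. In the lists for eye, synapse, transmitter receptors and exocrine pancreas, most members past the filter were higher, against 13.6% of all genes. In the cell cycle list 79.1% were lower, against 4.15% of all genes. Symbols are printed as the gene table gives them, some in upper case. A gene under 1 RPKM in both libraries cannot reach a 2-fold difference on this scale, so each list's counts are the same with and without the filter.

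**Figure D2:**
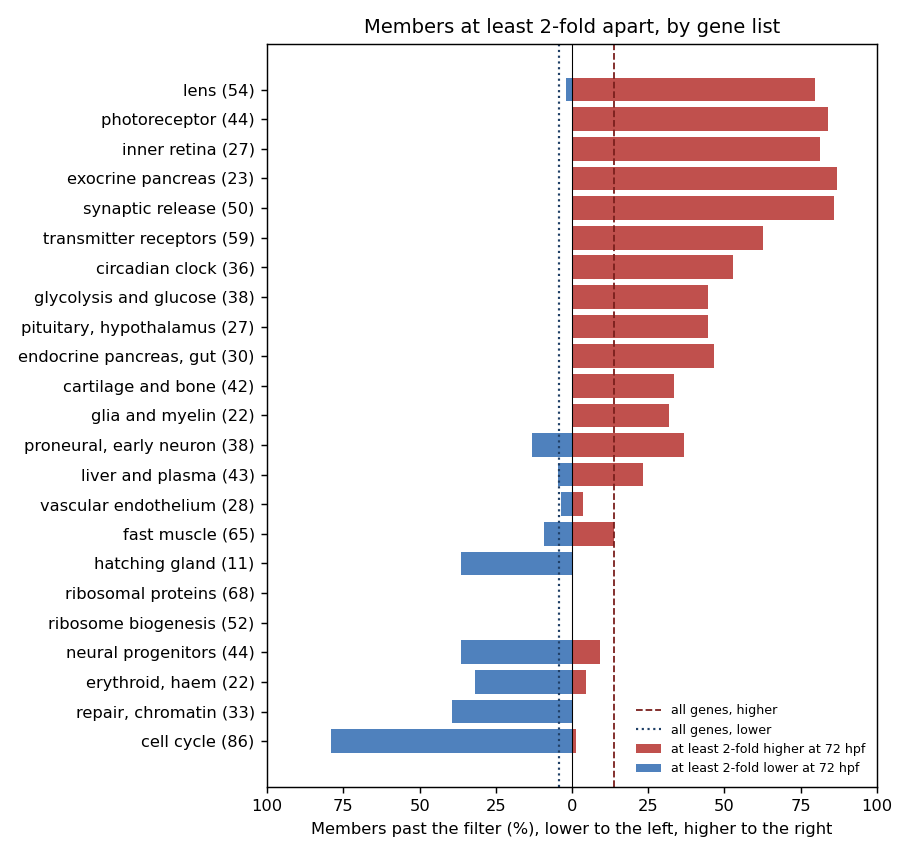
Share of each list's members past the filter that were at least 2-fold higher (red, right) or lower (blue, left) at 72 hpf, with the number of members in brackets. The dashed and dotted lines mark the shares over all 16016 genes, 13.6% and 4.15%. Lists are ordered by median difference, with the lens list at the top and the cell cycle list at the bottom. The exocrine pancreas list has the highest share of higher members and the cell cycle list the highest share of lower ones.

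The lens list had the largest median difference of the tissue and function lists. Of 65 genes for crystallins, the structural proteins of the lens, and for lens fibre proteins, 54 passed the filter. At 72 hpf 43 were higher, 35 of them by 4-fold, and 1 was lower, with a median difference of 2.77. The median level of these members was 2.99 RPKM at 36 hpf, 5.96 at 48 hpf, 12.7 at 60 hpf and 39.8 at 72 hpf, so each library was above the one before it. Together the genes of the list held 0.344% of the summed RPKM at 36 hpf and 2.12% at 72 hpf.

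The beta crystallin cryba1l1 was the most abundant of them at 72 hpf, at 181 RPKM at 36 hpf, 378 at 48 hpf, 721 at 60 hpf and 1307 at 72 hpf. Gamma M crystallins, which dominate the fish lens, started far lower. The gene crygm2d15 stood at 1.51 RPKM at 36 hpf, 5.62 at 48 hpf, 22.8 at 60 hpf and 133 at 72 hpf, a ratio of 87.7 with a 95% counting interval of 75.3 to 103. Its neighbour in name crygm2d16 was at 0.838 RPKM at 36 hpf, 2.79 at 48 hpf, 15.4 at 60 hpf and 86.1 at 72 hpf. Both were under 2 RPKM at the start and among the more strongly expressed genes at 72 hpf. At 0.0978 RPKM at 36 hpf, 0.513 at 48 hpf, 1.77 at 60 hpf and 42.6 at 72 hpf, crygm2d11 was 436 times as high at the end, on 15 reads at the start (interval 264 to 779), and it reached 361 RPKM in the 1-week larva. The crystallin crybgx read 0.0349 RPKM at 36 hpf and 35.9 at 72 hpf. The gamma M crystallins are near-identical copies and can share reads, so the split among them is uncertain. Of 41 crystallin genes past the filter, not only gamma M ones, 36 were higher and 0 lower. Copies that share reads go the same way, and genes under 1 RPKM at 36 hpf could not count as lower. The shared direction is therefore not independent between genes.

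Most photoreceptor genes past the filter were under 1 RPKM at 36 hpf. Those passed only through their 72 hpf value and could not count as lower. The list's low median at 36 hpf thus follows in part from the filter. Of 65 genes for opsins, the phototransduction cascade and the visual cycle, 44 passed the filter, 37 were higher, 25 of them by 4-fold, and 0 were lower, with a median difference of 2.57. The median level was 0.429 RPKM at 36 hpf, 1.2 at 48 hpf, 1.22 at 60 hpf and 11.6 at 72 hpf, so that the largest step lay between the 60 and 72 hpf libraries. The median of all 2182 higher genes had its largest step there too.

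Cone opsins, the light receptors of cones, were among them. The red cone opsin opn1lw2 was at 0.409 RPKM at 36 hpf, 1.93 at 48 hpf, 1.17 at 60 hpf and 108 at 72 hpf. Blue cone opsin opn1sw2 was at 1.11 RPKM at 36 hpf, 1.94 at 48 hpf, 0.624 at 60 hpf and 97.9 at 72 hpf. The green cone opsin opn1mw2 was lowest of the 3 at 72 hpf, at 0.078 RPKM at 36 hpf, 0.273 at 48 hpf, 0.0482 at 60 hpf and 11.9 at 72 hpf. In each of the 3 opsins named, the 60 hpf value was below the 48 hpf value and the 72 hpf value far above both.

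The cascade behind the opsins was likewise highest at 72 hpf. Cone transducin GNAT2, which couples cone opsin to its phosphodiesterase, was at 0.247 RPKM at 36 hpf, 0.539 at 48 hpf, 0.182 at 60 hpf and 19 at 72 hpf. Its beta partners GNB3 and gnb3b read 0.255 RPKM at 36 hpf and 50.1 at 72 hpf, and 0.202 RPKM at 36 hpf and 36.1 at 72 hpf. Retinoschisin rs1a, which holds retinal layers together, stood at 0.278 RPKM at 36 hpf, 1.58 at 48 hpf, 1.36 at 60 hpf and 104 at 72 hpf. Among regulators, six7, a factor of cone identity in zebrafish, read 0.0915 RPKM at 36 hpf and 7.94 at 72 hpf, and NR2E3, a nuclear receptor of photoreceptor fate, 0.65 RPKM at 36 hpf and 7.37 at 72 hpf. Both were below the red and blue cone opsins at 72 hpf, and at 60 hpf they were already at 1.95 and 3.94 RPKM.

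Genes of inner retinal neurons were higher already before 72 hpf. Of 33 genes, 27 passed the filter, 22 were higher and 0 lower, with a median level of 2.9 RPKM at 36 hpf, 5.55 at 48 hpf, 7.31 at 60 hpf and 12.9 at 72 hpf. VSX1, a homeobox factor of bipolar cells, was at 3.16 RPKM at 36 hpf, 5.77 at 48 hpf, 24.4 at 60 hpf and 59.7 at 72 hpf. POU4F2, a factor of retinal ganglion cells, was at 0.842 RPKM at 36 hpf, 1.7 at 48 hpf, 4.32 at 60 hpf and 14.6 at 72 hpf. The calcium-binding protein calb2b, found in amacrine and ganglion cells among others, read 7.18 RPKM at 36 hpf, 10.4 at 48 hpf, 9.59 at 60 hpf and 56.3 at 72 hpf. VSX1 and POU4F2 were well above their 36 hpf level by 60 hpf, whereas calb2b was nearly flat until then. The Pax6-related gene pax10, expressed in the inner retina of fish, was at 0.346 RPKM at 36 hpf and 11 at 72 hpf.

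**Figure D3:**
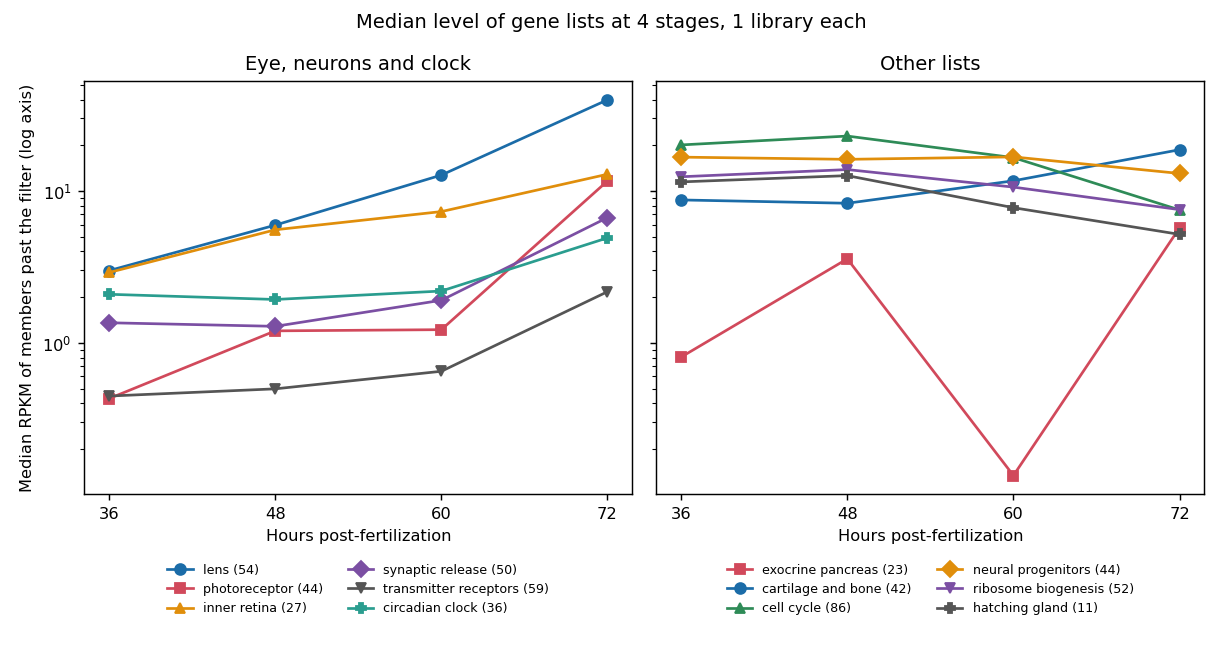
Median RPKM (log axis) of the members past the filter at 36, 48, 60 and 72 hpf, 1 library each, for lists of eye, neurons and clock (left) and other lists (right), with the number of members in brackets. Lens and inner retina lists are higher in each later library, photoreceptor, synaptic, receptor and clock lists step up between 60 and 72 hpf, and the exocrine pancreas list dips at 60 hpf.

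Genes of synaptic transmission were higher almost throughout. The list of synaptic vesicle and release genes had 58 members, of which 50 passed the filter, 43 were higher and 0 lower. Its median difference was 1.59, and its median level was 1.35 RPKM at 36 hpf, 1.28 at 48 hpf, 1.91 at 60 hpf and 6.68 at 72 hpf. Synaptotagmin syt5b, a calcium sensor of vesicle fusion, had the largest difference, at 0.931 RPKM at 36 hpf, 1.46 at 48 hpf, 3.5 at 60 hpf and 53.1 at 72 hpf (ratio 57.1, interval 51.1 to 63.9). The vesicle protein sypb, a synaptophysin, was at 8.19 RPKM at 36 hpf, 11.5 at 48 hpf, 11.1 at 60 hpf and 61.8 at 72 hpf. The vesicle SNARE vamp2 was at 6.35 RPKM at 36 hpf, 8.32 at 48 hpf, 12.9 at 60 hpf and 37.6 at 72 hpf. Both were present at 36 hpf and stepped up after 60 hpf, as did the median of all higher genes. SNAP25, the SNARE of the presynaptic membrane, is carried by 2 gene IDs. The first (ENSDARG00000058117) stood at 5.15 RPKM at 36 hpf and 69.2 at 72 hpf, and the other (ENSDARG00000020609) at 25.2 RPKM at 36 hpf and 86.1 at 72 hpf, so the paralog that was lower at the start differed more.

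Receptors for transmitters were lower in level than release genes. Those under 1 RPKM at 36 hpf passed the filter only through their 72 hpf value, so the low median at 36 hpf follows in part from the filter. Of 85 listed receptor genes 59 passed the filter, 37 were higher and 0 lower, with a median level of 0.446 RPKM at 36 hpf, 0.497 at 48 hpf, 0.649 at 60 hpf and 2.17 at 72 hpf. By class, 22 of 26 glutamate receptor genes were higher and 16 of 19 GABA and glycine receptor genes, but 1 of 11 nicotinic receptor genes, a share near that of all genes. The AMPA receptor genes GRIA4 and gria4a read 0.69 RPKM at 36 hpf and 4.06 at 72 hpf, and 0.339 RPKM at 36 hpf and 3.15 at 72 hpf. Both stayed under 2 RPKM through 60 hpf.

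Channels and signalling proteins of excitable cells went the same way. Higher were 12 of 21 calcium channel genes, 15 of 42 potassium channel genes, 13 of 19 regulators of G protein signalling, 6 of 12 protocadherins and 18 of 36 G protein subunits, against 13.6% of all genes. The calcium and potassium channel genes had median levels of 0.729 and 0.607 RPKM at 36 hpf. Those under 1 RPKM at 36 hpf passed the filter only through their 72 hpf value and could not count as lower. The gamma subunit GNG13, known from taste and retinal bipolar cells, read 6.37 RPKM at 36 hpf, 12.1 at 48 hpf, 13.9 at 60 hpf and 96.2 at 72 hpf. CACNG3, which brings AMPA receptors to the synapse, read 0.887 RPKM at 36 hpf and 8.62 at 72 hpf, and the potassium channel KCNMA1 1.78 RPKM at 36 hpf and 6.46 at 72 hpf. The only lower gene among the calcium and potassium channels was KCNK6, at 7.37 RPKM at 36 hpf and 2.91 at 72 hpf. The axonal motor KIF1A, which carries synaptic vesicle precursors, was at 2.19 RPKM at 36 hpf and 8.02 at 72 hpf, and in the same family the mitotic motors kif20a and kif11 were lower, at 18.4 RPKM at 36 hpf and 6.02 at 72 hpf, and 39.1 RPKM at 36 hpf and 15.4 at 72 hpf. The GABA transporter SLC6A11 read 1.23 RPKM at 36 hpf and 13.3 at 72 hpf, while the gene slc6a11a of the same transporter was lower, at 9.51 RPKM at 36 hpf and 3.57 at 72 hpf. Higher too was the bicarbonate transporter slc4a10a of neurons, at 0.761 RPKM at 36 hpf and 8.43 at 72 hpf.

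Genes of neuronal fate divided. Of 40 proneural and early neuron genes 38 passed the filter. Of these 38, 14 (36.8%) were higher and 5 (13.2%) lower, against 13.6% and 4.15% of all genes. The higher ones included NEUROD1, a factor of late neurogenesis also used in photoreceptors and endocrine cells, at 16.6 RPKM at 36 hpf, 25.9 at 48 hpf, 29.8 at 60 hpf and 96.7 at 72 hpf. NEUROD2, of differentiated forebrain neurons, was at 0.149 RPKM at 36 hpf and 4.04 at 72 hpf, and the neuronal RNA-binding protein ELAVL4 at 5.92 RPKM at 36 hpf and 26 at 72 hpf. The lower ones were mainly factors of early neurogenesis. The proneural factor neurog1 was at 34.6 RPKM at 36 hpf, 28.1 at 48 hpf, 24.4 at 60 hpf and 10.5 at 72 hpf. ATOH1, the proneural factor of hair cells and cerebellar granule cells, read 8.9 RPKM at 36 hpf and 1.87 at 72 hpf, OLIG3 13 RPKM at 36 hpf and 2.16 at 72 hpf, and EBF2 34.4 RPKM at 36 hpf and 9.04 at 72 hpf. In each of these 4 the 72 hpf library was the lowest of the hatching period.

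Progenitor genes were more often lower than higher, at 36.4% and 9.09%, against 4.15% and 13.6% of all genes. Of 48 genes of retinal and neural progenitors 44 passed the filter, 16 were lower and 4 higher (19 and 2 after rescaling), with a median difference of -0.58. The Notch target her12 was at 66.5 RPKM at 36 hpf, 59.6 at 48 hpf, 66.8 at 60 hpf and 12.9 at 72 hpf. The Notch receptor NOTCH3 was at 56.5 RPKM at 36 hpf, 39.1 at 48 hpf, 30.01 at 60 hpf and 14.9 at 72 hpf. Nestin nes, an intermediate filament of neural stem cells, was at 14.9 RPKM at 36 hpf, 10.27 at 48 hpf, 10.6 at 60 hpf and 3.39 at 72 hpf. The Notch target was flat until 60 hpf, and the other 2 were lower at 48 hpf already. Across the hairy and hey family, transcriptional repressors that mostly answer to Notch, 11 of 20 (55%) were lower and 0 higher. They included her4.1 at 18.5 RPKM at 36 hpf and 7.12 at 72 hpf, and her2 at 35.4 RPKM at 36 hpf and 8.61 at 72 hpf.

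The Sox family showed both sides of that division. The progenitor factors SOX3, sox19a and sox19b were lower, at 80.0 and 31 RPKM, 65.4 and 24.7 RPKM and 50.1 and 19.6 RPKM at 36 and 72 hpf in that order, though SOX3 and sox19a were highest of the 4 libraries at 48 hpf. SOX4, a factor of differentiating neurons, was higher, at 41.2 RPKM at 36 hpf, 56.3 at 48 hpf, 70.7 at 60 hpf and 140.0 at 72 hpf, and so was SOX14, at 3.2 RPKM at 36 hpf and 14.2 at 72 hpf. SOX2, also a progenitor factor, was not lower, at 32.1 RPKM at 36 hpf and 33.1 at 72 hpf. Of the family's 20 members past the filter, 4 (20%) were higher and 5 (25%) lower, against 13.6% and 4.15% of all genes. The other 11 were within 2-fold.

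Myelin genes were low throughout. Of 22 glial genes past the filter 7 (31.8%) were higher and 0 lower, against 13.6% and 4.15% of all genes. Myelin basic protein mbpa was at 0.0727 RPKM at 36 hpf, 0.201 at 48 hpf, 0.295 at 60 hpf and 5.4 at 72 hpf, on 23 reads at 36 hpf (ratio 74.4, interval 49.4 to 118), and reached 70.7 RPKM in the 1-week larva. The oligodendrocyte factor olig1 read 0.0911 RPKM at 36 hpf and 2.84 at 72 hpf, and the astroglial glutamate transporter SLC1A3 3.42 RPKM at 36 hpf and 14.6 at 72 hpf.

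Proliferation genes were the largest coherent group below. Of 89 cell cycle and DNA replication genes, 86 passed the filter, 68 were lower, 1 was higher, and 0 were lower by 4-fold. Their differences ran from -1.95 to 1.06 with a median of -1.29, and 17 stayed within 2-fold. After rescaling 78 were lower and 0 higher. The median level was 20.1 RPKM at 36 hpf, 23 at 48 hpf, 16.6 at 60 hpf and 7.5 at 72 hpf. The single higher member was 1 of 2 IDs under STMN1, a microtubule regulator also of neurons, and is named after its value was seen, as the exception.

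PCNA, the sliding clamp of DNA polymerase, was among the most abundant members, at 535 RPKM at 36 hpf, 636 at 48 hpf, 466 at 60 hpf and 182 at 72 hpf (ratio of 36 to 72 hpf 2.94, interval 2.91 to 2.97), and stood at 49 RPKM in the 1-week larva. Cyclin B1 CCNB1, which drives entry into mitosis, was at 78.4 RPKM at 36 hpf, 99.1 at 48 hpf, 62.3 at 60 hpf and 26.9 at 72 hpf. The replicative helicase subunit MCM5 was at 73.9 RPKM at 36 hpf, 78.9 at 48 hpf, 49.3 at 60 hpf and 21.2 at 72 hpf. The nucleotide-reducing enzyme subunit RRM1 was at 108 RPKM at 36 hpf, 114 at 48 hpf, 68.3 at 60 hpf and 31.8 at 72 hpf. All 4 were as high at 48 hpf as at 36 hpf or higher, and lower at 60 and again at 72 hpf. Chromatin and repair genes tied to replication had 13 of 33 lower (39.4%, against 4.15% of all genes) and 0 higher. Among them the histone chaperone NASP was at 60.1 RPKM at 36 hpf and 17.6 at 72 hpf, and hmga1a, a chromatin protein of proliferating cells, at 1016 RPKM at 36 hpf and 421 at 72 hpf.

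Ribosome biogenesis and splicing genes had medians below 0 with few members 2-fold lower. Of 52 ribosome biogenesis genes 0 were 2-fold lower as deposited, but the differences ran from -0.96 to 0.02 with a median of -0.56, and 8 were counted as lower after rescaling by the median of ratios. Splicing factors had 4 of 60 lower (8 after rescaling), 6.67% against 4.15% of all genes, and a median difference of -0.51. None of 68 cytosolic ribosomal protein genes and none of 59 mitochondrial ones was 2-fold apart.

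**Figure D4:**
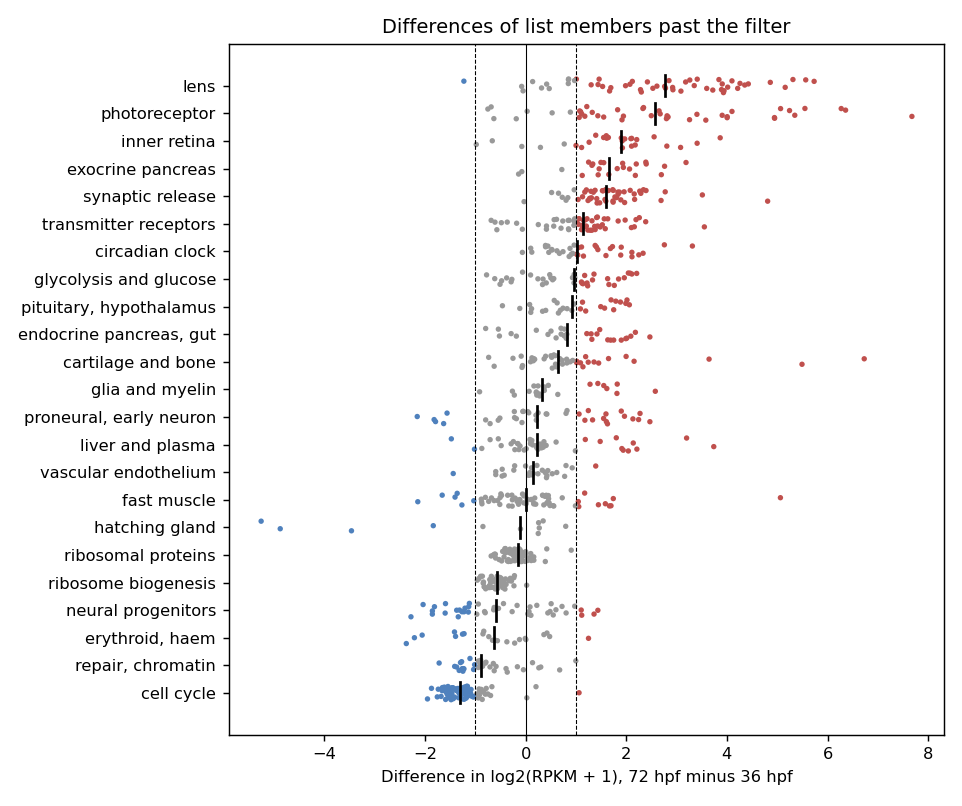
Difference in log2(RPKM + 1), 72 hpf minus 36 hpf, of every member past the filter in 23 lists, 1 point per gene, jittered vertically within its list. Red points are at least 2-fold higher, blue at least 2-fold lower, grey within 2-fold, and black bars are list medians. Most cell cycle points form 1 group below 0, and 1 point is at least 2-fold higher. The lens and photoreceptor points mostly spread from 0 to over 5.

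Skeletal genes showed a few very large differences over a broad base of small ones. Of 54 cartilage and bone genes 42 passed the filter, with a median difference of 0.65. Of these 42, 14 (33.3%) were higher and 0 lower, against 13.6% and 4.15% of all genes. After rescaling 10 were higher. MATN1, a matrix protein of mature cartilage, was at 0.038 RPKM at 36 hpf, 0.763 at 48 hpf, 0.235 at 60 hpf and 109 at 72 hpf, and stood at 122 RPKM in the 1-week larva. COL10A1, a collagen of mature cartilage and, in fish, of forming bone, was at 0.17 RPKM at 36 hpf, 0.57 at 48 hpf, 3.5 at 60 hpf and 51.7 at 72 hpf. COL9A1, a fibril-associated collagen of cartilage, was at 2.37 RPKM at 36 hpf, 2.86 at 48 hpf, 5.48 at 60 hpf and 41.2 at 72 hpf. Aggrecan acana, the main cartilage proteoglycan, stood at 0.498 RPKM at 36 hpf and 4.98 at 72 hpf. MATN1 was under 1 RPKM through 60 hpf, while the collagens were already higher at 60 hpf than at 36 hpf. The carrier fgfbp2b, a binding protein for Fgf ligands, had one of the largest differences of all genes, at 1.36 RPKM at 36 hpf, 3.56 at 48 hpf, 12.6 at 60 hpf and 102 at 72 hpf (ratio 75.3, interval 67.3 to 84.5).

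Actinodins, the proteins of the fin fold's rods in fish, were higher from 48 hpf on. The gene and2 was at 37.8 RPKM at 36 hpf, 101 at 48 hpf, 96.9 at 60 hpf and 212 at 72 hpf. Its relative and3 was at 18 RPKM at 36 hpf, 53.8 at 48 hpf, 50.3 at 60 hpf and 81.8 at 72 hpf. The third, and1, was at 58.7 RPKM at 36 hpf, 165 at 48 hpf, 105 at 60 hpf and 165 at 72 hpf. All 3 were well above their 36 hpf level at 48 hpf, and and2 and and3 were higher again at 72 hpf. In the whole fin and limb list 4 of 24 members (16.7%) were higher and 1 (4.17%) lower, near the 13.6% and 4.15% of all genes. After rescaling 4 of 25 were higher and 3 lower. The higher members were the 3 actinodins and emilin3a, an extracellular matrix protein at 1.46 and 7.54 RPKM.

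Fast muscle genes had a median difference near 0. Of 65 past the filter 9 (13.8%) were higher and 6 (9.23%) lower, against 13.6% and 4.15% of all genes. After rescaling 7 were higher and 9 lower. The largest difference was that of AMPD1, the muscle enzyme of AMP turnover, at 0.375 RPKM at 36 hpf, 0.721 at 48 hpf, 11.2 at 60 hpf and 45 at 72 hpf. Parvalbumin pvalb1, a calcium buffer of fast fibres, was at 1155 RPKM at 36 hpf, 1103 at 48 hpf, 4482 at 60 hpf and 3868 at 72 hpf, which made it one of the most abundant transcripts. Genes of sarcomere assembly were among the lower ones. UNC45B, the chaperone of myosin folding, was at 14.4 RPKM at 36 hpf, 8.42 at 48 hpf, 7.63 at 60 hpf and 3.87 at 72 hpf, and mybpc2b, a myosin-binding protein, at 32.7 RPKM at 36 hpf, 14.1 at 48 hpf, 27.5 at 60 hpf and 6.64 at 72 hpf. The genes pvalb1 and AMPD1 were higher from 60 hpf on, and mybpc2b was low at both 48 and 72 hpf. In the heart list 2 of 28 genes (7.14%) were higher and 1 (3.57%) lower, below the 13.6% and 4.15% of all genes. After rescaling 2 were higher and 4 lower. The higher heart genes were the light chain myl4 at 1.16 and 8.53 RPKM and klf2a, a factor that responds to blood flow, at 3.92 and 17.2 RPKM, at 36 and 72 hpf.

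Exocrine pancreas enzymes were higher at 72 than at 36 hpf but not along a steady course. Most of those past the filter were under 1 RPKM at 36 hpf. Those passed only through their 72 hpf value and could not count as lower. Of 31 genes 23 passed the filter, 20 were higher and 0 lower, with a median level of 0.806 RPKM at 36 hpf, 3.57 at 48 hpf, 0.134 at 60 hpf and 5.71 at 72 hpf. Trypsin prss1 was at 4.39 RPKM at 36 hpf, 17.6 at 48 hpf, 1.38 at 60 hpf and 48.1 at 72 hpf. The chymotrypsin ctrb.1 was at 1.69 RPKM at 36 hpf, 7.27 at 48 hpf, 0.0239 at 60 hpf and 13.2 at 72 hpf. The carboxypeptidase CPB1 was at 1.74 RPKM at 36 hpf, 5.32 at 48 hpf, 0.735 at 60 hpf and 13.4 at 72 hpf. All 3 were higher at 48 hpf than at 36 hpf, lowest at 60 hpf and highest at 72 hpf. Trypsin was also at 20.9 RPKM in the 64-cell library (2 hpf), 25.4 in the 15-somite library and 4939 in the 1-week larva. In the 64-cell library ctrb.1 was at 7.65 RPKM and CPB1 at 5.43, so all 3 were above their 36 hpf values there. Markers of a tissue that these stages should hold little of, a list of 35 germ cell and oocyte genes, had 2 members past the filter. Their summed level was 13.5 RPKM at 36 hpf, 49.1 at 48 hpf, 6.05 at 60 hpf and 7.57 at 72 hpf, which has the same high value at 48 hpf and low one at 60 hpf. The yolk precursor vtg1, made in adult liver, was at 0.0472 RPKM at 36 hpf, 0.112 at 48 hpf, 0.0496 at 60 hpf and 0.0381 at 72 hpf. The part of these in the pancreas values was not tested.

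Liver genes were more often higher than lower, as were all genes. Of 43 past the filter (of 54), 10 (23.3%) were higher and 2 (4.65%) lower, against 13.6% and 4.15% of all genes. The median difference was 0.22. After rescaling it was 0.03, with 10 higher and 3 lower. Angiotensinogen agt, a plasma hormone precursor, was at 0.495 RPKM at 36 hpf, 3.55 at 48 hpf, 4.34 at 60 hpf and 19 at 72 hpf. HPD, an enzyme of tyrosine breakdown, was at 0.325 RPKM at 36 hpf, 0.872 at 48 hpf, 2.04 at 60 hpf and 11.2 at 72 hpf. The liver fatty acid binding protein fabp10a had a low 60 hpf value like the pancreatic enzymes, at 3.15 RPKM at 36 hpf, 9.8 at 48 hpf, 0.487 at 60 hpf and 17.3 at 72 hpf. The gene fabp10a was also at 20.6 RPKM in the 64-cell library and 24.4 in the 15-somite library. The genes agt and HPD were higher in each later library of the hatching period. PCK1, the entry enzyme of gluconeogenesis, stood at 6.95 RPKM at 36 hpf and 31.7 at 72 hpf.

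In the intestine list 5 of 30 genes were higher and 2 lower. The higher ones included the brush border actin bundler VIL1, at 0.218 RPKM at 36 hpf and 3.89 at 72 hpf, and the claudin cldn15la, at 1.59 RPKM at 36 hpf and 12.9 at 72 hpf. A lectin of the gut, lgals2b, was at 23.3 RPKM at 36 hpf, 32.9 at 48 hpf, 25 at 60 hpf and 132 at 72 hpf. FABP2, the intestinal fatty acid binding protein, was lower, at 147 RPKM at 36 hpf, 72.3 at 48 hpf, 85 at 60 hpf and 43 at 72 hpf. The list's shares of 16.7% higher and 6.67% lower were near the 13.6% and 4.15% of all genes.

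Hormone genes were more often higher than lower at 72 hpf, as were all genes, of which 13.6% were higher and 4.15% lower. Of 30 genes of the endocrine pancreas and gut, 14 (46.7%) were higher and 0 lower. Of 27 pituitary and hypothalamic genes, 12 (44.4%) were higher and 0 lower. The median level of these 27 was 0.518 RPKM at 36 hpf. Those under 1 RPKM at 36 hpf passed the filter only through their 72 hpf value and could not count as lower. Insulin ins reached its level by 60 hpf, at 6.5 RPKM at 36 hpf, 14.7 at 48 hpf, 26.2 at 60 hpf and 23.2 at 72 hpf. Growth hormone gh1 was at 0.0281 RPKM at 36 hpf, 0.0571 at 48 hpf, 0.161 at 60 hpf and 3.29 at 72 hpf. Oxytocin oxt was at 0.0722 RPKM at 36 hpf, 0.18 at 48 hpf, 0.298 at 60 hpf and 2.96 at 72 hpf. Both were near 0 until 60 hpf. The processing enzyme CPE, which trims hormone precursors in neurons and endocrine cells, was at 6.61 RPKM at 36 hpf and 31.4 at 72 hpf.

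Circadian clock genes were higher in many cases (52.8%, against 13.6% of all genes) and 2-fold lower in none. Of 37 genes 36 passed the filter, 19 were higher (14 after rescaling) and 0 lower, with a median level of 2.09 RPKM at 36 hpf, 1.93 at 48 hpf, 2.19 at 60 hpf and 4.91 at 72 hpf. The nuclear receptors of the clock's stabilizing loop differed most. The Rev-erb gene nr1d2a was at 0.817 RPKM at 36 hpf, 1.82 at 48 hpf, 2.2 at 60 hpf and 17.1 at 72 hpf, NR1D2 at 2.72 RPKM at 36 hpf, 4.2 at 48 hpf, 2.82 at 60 hpf and 17.8 at 72 hpf, and NR1D1 at 0.0862 RPKM at 36 hpf, 0.201 at 48 hpf, 0.0851 at 60 hpf and 4.17 at 72 hpf. Their activating counterpart rorab was at 2.86 RPKM at 36 hpf, 2.55 at 48 hpf, 3.13 at 60 hpf and 15.7 at 72 hpf. All 4 stepped up after 60 hpf, as did the median of all higher genes. Clock genes cycle over the day, 36 and 72 hpf are not a whole number of days apart, and the labels used here give neither the clock time nor the light regime of collection, so time of day and stage cannot be told apart for these genes.

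Nuclear receptors as a family had 11 of 42 (26.2%) higher and 4 (9.52%) lower, against 13.6% and 4.15% of all genes. Among the higher were the immediate early receptors NR4A1, at 3.37 RPKM at 36 hpf and 15.8 at 72 hpf, and NR4A3, at 1.27 RPKM at 36 hpf and 8.2 at 72 hpf. Thyroid hormone receptor THRB stood at 6.4 RPKM at 36 hpf and 15 at 72 hpf, and ESRRG, an orphan receptor of oxidative tissues, at 1.5 RPKM at 36 hpf and 13.1 at 72 hpf. The lower ones included receptors of progenitors and of metabolism. NR2E1, of neural stem cells, was at 10.7 RPKM at 36 hpf and 4.48 at 72 hpf, nr2f5 at 37.6 RPKM at 36 hpf and 14.3 at 72 hpf, and NR0B2, a repressor of bile acid synthesis in mammals, at 13 RPKM at 36 hpf and 2.29 at 72 hpf. Other genes were higher too. FKBP5, a chaperone of the glucocorticoid receptor, was at 1.88 RPKM at 36 hpf, 5.66 at 48 hpf, 9.48 at 60 hpf and 27.8 at 72 hpf. KLF9, a zinc finger factor, was at 0.30 RPKM at 36 hpf, 0.824 at 48 hpf, 1.09 at 60 hpf and 7.1 at 72 hpf. Both were higher in each later library.

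Other transcription factor families gave shorter accounts. Forkhead factors counted 11 of 44 (25%) higher and 0 lower, against 13.6% and 4.15% of all genes. They included foxg1b, a factor of the forebrain and eye, at 7.16 RPKM at 36 hpf and 37 at 72 hpf, FOXQ1 at 1.73 RPKM at 36 hpf and 19.9 at 72 hpf, and the Foxo genes foxo3b and foxo3a, which act in stress and nutrient response, at 5.17 and 19.2 RPKM and 7.26 and 16.9 RPKM. LIM homeobox factors had 5 of 15 (33.3%) higher and Irx factors 3 of 9 (33.3%), against 13.6% of all genes. The LIM factor ISL1, of motor, sensory and endocrine cells, was at 9.9 RPKM at 36 hpf and 39.7 at 72 hpf. IRX4 was at 1.41 RPKM at 36 hpf and 6.84 at 72 hpf. The hox genes, which set position along the body axis, had 2 of 38 higher and 1 lower (0 and 2 after rescaling), fewer than the share of all genes in the higher direction. The lower one was hoxb1a, of the fourth hindbrain segment, at 2.54 RPKM at 36 hpf and 0.672 at 72 hpf.

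Energy genes differed by pathway. Of 38 glycolysis and glucose genes 17 (44.7%) were higher and 0 lower, against 13.6% and 4.15% of all genes. The median level of these 38 was 5.9 RPKM at 36 hpf, 8.04 at 48 hpf, 8.58 at 60 hpf and 17 at 72 hpf. The neuronal enolase eno2 was at 3.78 RPKM at 36 hpf, 4.59 at 48 hpf, 6.08 at 60 hpf and 19.7 at 72 hpf. GAPDHS, under which the table names a glyceraldehyde phosphate dehydrogenase gene, was at 83.3 RPKM at 36 hpf, 175 at 48 hpf, 202 at 60 hpf and 327 at 72 hpf. FBP2, the muscle enzyme of gluconeogenesis, read 3.52 RPKM at 36 hpf and 19.9 at 72 hpf. Nuclear genes of oxidative phosphorylation had 5 of 61 higher, a share below that of all genes, and none of the 13 mitochondrially encoded genes was 2-fold apart. These were among the most abundant transcripts of both libraries, with MT-ATP6 at 11946 and 12210.0 RPKM and MT-CO2 at 9881 and 11881 RPKM at 36 and 72 hpf.

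**Figure D5:**
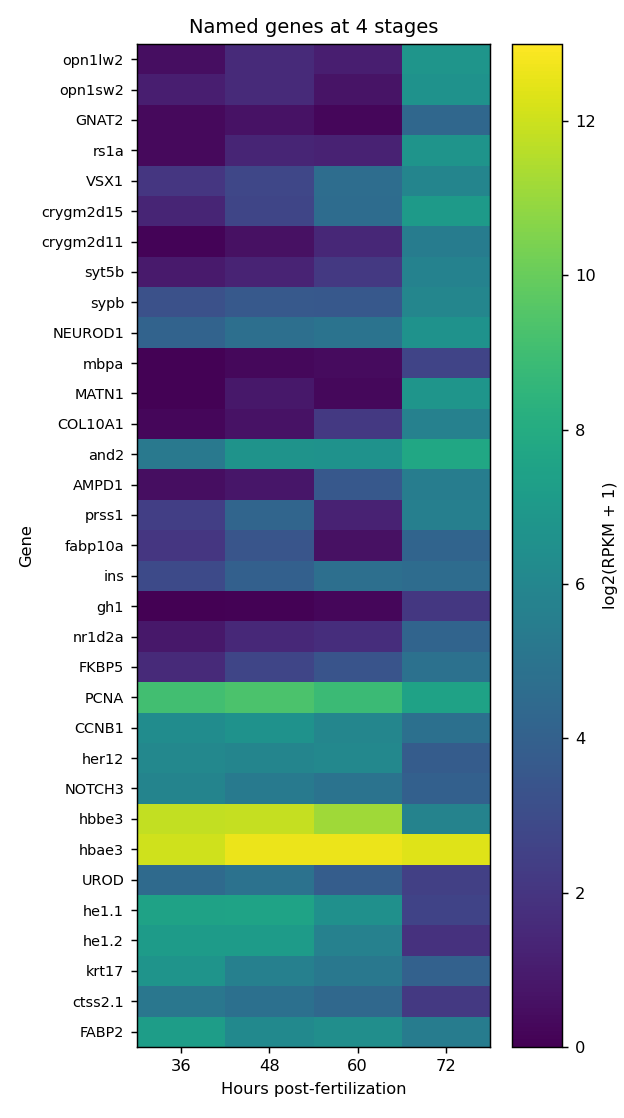
Level in log2(RPKM + 1) of 33 named genes (rows) at 36, 48, 60 and 72 hpf (columns), 1 library each, with colour from dark (0) to yellow (13). Eye, synapse and skeleton genes at the top brighten at 72 hpf, while hatching enzymes, hbbe3, PCNA and her12 in the lower part are darkest there.

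The embryonic beta globin hbbe3 had the largest negative difference of all named genes, at -6.0. It was at 3603 RPKM at 36 hpf, 3769.7 at 48 hpf, 2259.9 at 60 hpf and 55.2 at 72 hpf, and at 0.522 in the 1-week larva. The ratio of 36 to 72 hpf was 65.3 (interval 63.6 to 67). The embryonic alpha globin hbae3 was within 2-fold, at 4238 RPKM at 36 hpf, 6319 at 48 hpf, 6305 at 60 hpf and 5359 at 72 hpf. The 2 chains were thus at like levels at 36 hpf and far apart at 72 hpf. Globin genes are near-identical copies within a cluster, and reads may be shared or assigned to a copy that the table does not list, which was not tested. Of 22 genes of red cells and haem synthesis 7 (31.8%) were lower and 1 (4.55%) higher, against 4.15% and 13.6% of all genes. The red cell factor gata1a was at 4.27 RPKM at 36 hpf, 4.32 at 48 hpf, 2.64 at 60 hpf and 0.981 at 72 hpf. UROD, an enzyme of haem synthesis, was at 21.7 RPKM at 36 hpf, 28.6 at 48 hpf, 13.1 at 60 hpf and 4.47 at 72 hpf. Both held their level until 48 hpf and were lowest at 72 hpf.

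Hatching gland proteases were close to gone at 72 hpf. The hatching enzyme he1.1, which digests the chorion, was at 180.2 RPKM at 36 hpf, 185 at 48 hpf, 92 at 60 hpf and 5.17 at 72 hpf. Its copy he1.2 was at 138 RPKM at 36 hpf, 140.4 at 48 hpf, 52.1 at 60 hpf and 2.64 at 72 hpf. The ratios of 36 to 72 hpf were 34.8 (interval 32.8 to 37) and 52.3 (48 to 57.1). The gland's cathepsin ctslb was at 11.5 RPKM at 36 hpf, 12.3 at 48 hpf, 3.39 at 60 hpf and 0.133 at 72 hpf, and he1.3 at 2.67 RPKM at 36 hpf and 0.0303 at 72 hpf. All 4 were lower at 60 hpf than at 48 hpf and lower again at 72 hpf. The other 7 of the 11 listed genes stayed within 2-fold, among them AGR2, a secretory pathway protein that other mucous tissues also make, at 39.5 RPKM at 36 hpf and 47.2 at 72 hpf.

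Several other proteases and lysosomal genes were also lower. Of 14 cathepsins 5 (35.7%) were lower and 3 (21.4%) higher, against 4.15% and 13.6% of all genes. The hatching gland's ctslb was among the lower cathepsins. The cathepsin ctsll was at 38 RPKM at 36 hpf, 39.1 at 48 hpf, 15.17 at 60 hpf and 2.52 at 72 hpf. ACP5, an acid phosphatase of macrophages and osteoclasts, was at 101 RPKM at 36 hpf, 113 at 48 hpf, 71.3 at 60 hpf and 7.64 at 72 hpf. Cathepsin S ctss2.1, an enzyme of macrophages and microglia, was at 34.6 RPKM at 36 hpf, 26.6 at 48 hpf, 20.3 at 60 hpf and 3.47 at 72 hpf. In the 64-cell and oblong-sphere libraries ACP5 was at 423 and 822 RPKM and ctss2.1 at 251 and 395. At 50%-epiboly ctsll was at 713 RPKM. The part of macrophages in the values of these genes was not tested. In the leukocyte list, 4 of 31 genes (12.9%) were lower and 1 (3.23%) higher, against 4.15% and 13.6% of all genes. The lower ones included apoeb, an apolipoprotein of yolk cell and microglia, at 1228 RPKM at 36 hpf, 1476 at 48 hpf, 639.8 at 60 hpf and 441 at 72 hpf, and cd68, a lysosomal protein of macrophages, at 52.8 RPKM at 36 hpf, 64.9 at 48 hpf, 31.7 at 60 hpf and 21.5 at 72 hpf. Lysozyme lyz, of neutrophils and macrophages, was alike at both ends, at 24.3 RPKM at 36 hpf, 69.4 at 48 hpf, 136 at 60 hpf and 30.8 at 72 hpf, with its highest value at 60 hpf. A comparison of the ends alone therefore misses what happened in between for this gene.

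Epidermal keratins went both ways. Of 20 keratin genes 4 (20%) were higher and 3 (15%) lower, against 13.6% and 4.15% of all genes. After rescaling 2 were higher and 6 lower. The type I keratins krt17 and cyt1l were lower, at 103 RPKM at 36 hpf, 49.8 at 48 hpf, 36.4 at 60 hpf and 15.3 at 72 hpf, and 239 RPKM at 36 hpf, 178 at 48 hpf, 113 at 60 hpf and 66.9 at 72 hpf. The keratin krt1-19e was higher, at 419 RPKM at 36 hpf, 378 at 48 hpf, 552 at 60 hpf and 1040.5 at 72 hpf, and so was krt15, at 11.2 RPKM at 36 hpf and 27.8 at 72 hpf. The most abundant keratin, krt4 of the outer epidermal layer, was at 5908 RPKM at 36 hpf and 3181 at 72 hpf, within 2-fold. In the 1-week larva krt17 was at 350.5 RPKM, above its 36 hpf level. Among ionocyte and mucous cell genes 6 of 26 (23.1%) were higher and 1 (3.85%) lower, against 13.6% and 4.15% of all genes. The ammonia channel RHBG was at 3.19 RPKM at 36 hpf, 2.39 at 48 hpf, 3.62 at 60 hpf and 19 at 72 hpf.

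Sensory and defence lists were mixed or low. In the inner ear and lateral line list 5 of 22 genes (22.7%) were higher and 2 (9.09%) lower, against 13.6% and 4.15% of all genes. After rescaling 3 were higher and 2 lower. The hair cell S100 gene s100t was at 2.14 RPKM at 36 hpf, 4.55 at 48 hpf, 7.98 at 60 hpf and 15.6 at 72 hpf, and OTOP1, a channel needed for otolith formation in fish, at 6.84 RPKM at 36 hpf, 8.08 at 48 hpf, 3.78 at 60 hpf and 2.63 at 72 hpf. Of 21 lymphoid and thymus genes 6 passed the filter. The thymic chemokine ccl25b was at 2.97 RPKM at 36 hpf, 2.74 at 48 hpf, 9.87 at 60 hpf and 14.9 at 72 hpf, while the recombinase RAG1 of lymphocytes was at 0.163 RPKM at 36 hpf and 0.253 at 72 hpf. None of 16 Toll-like receptor genes reached 1 RPKM in either library, and none of 15 complement and acute phase genes past the filter was 2-fold apart.

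Vessels and pigment cells had a share of higher genes below the 13.6% of all genes. Their share of lower genes was near the 4.15% of all genes. The vascular list had 1 higher and 1 lower of 28 (3.57% each), and the pigment list 1 and 1 of 29 (3.45% each). The heat shock and unfolded protein list counted 1 higher and 4 lower of 33, so 12.1% were lower against 4.15% of all genes, with the small chaperone HSPB1 at 102 RPKM at 36 hpf, 101 at 48 hpf, 50.4 at 60 hpf and 28 at 72 hpf. Signalling lists had shares near or below those of all genes. The Wnt list had 3 higher and 2 lower of 41, or 7.32% and 4.88% (3 and 4 genes after rescaling). The Hedgehog and Bmp list had 5 and 0 of 41, or 12.2% and 0% (4 and 2 of 40 genes after rescaling). In the latter, the Bmp targets ID2 and ID4 were higher, at 15.9 and 55.3 RPKM and 5.57 and 28.3 RPKM at 36 and 72 hpf. The Bmp target ID1 was within 2-fold, at 176 RPKM at 36 hpf, 423 at 48 hpf, 391 at 60 hpf and 187 at 72 hpf.

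Solute carriers, the largest family measured, had 49 of 256 higher and 8 lower, so 19.1% were higher against 13.6% of all genes. The amino acid transporter chain SLC3A2 was at 10.1 RPKM at 36 hpf, 20.3 at 48 hpf, 27.3 at 60 hpf and 54 at 72 hpf. The zinc transporter SLC39A5 was lower, at 10.4 RPKM at 36 hpf, 7.34 at 48 hpf, 4.38 at 60 hpf and 3.54 at 72 hpf. Among further lower genes, PRTG, a receptor of early neural and paraxial tissue, was at 14.6 RPKM at 36 hpf, 6.04 at 48 hpf, 4.69 at 60 hpf and 0.766 at 72 hpf, and epha2a, an Eph receptor, at 16.5 RPKM at 36 hpf and 4.1 at 72 hpf.

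Some of the largest differences belonged to genes that the table names only by a clone or project. The gene si:ch211-255g12.6 had a difference of 6.76, at 0.00612 RPKM at 36 hpf, 1.47 at 48 hpf, 4.3 at 60 hpf and 108 at 72 hpf. The gene si:dkey-183i3.5 was at 2.24 RPKM at 36 hpf, 5.56 at 48 hpf, 31.9 at 60 hpf and 222 at 72 hpf. At 0.00825 RPKM at 36 hpf, 0.0618 at 48 hpf, 0.0316 at 60 hpf and 32.1 at 72 hpf, si:dkey-57a22.15 rested on 2 reads at 36 hpf (ratio 3897, interval 1078 to 32182). These 3 stood at 240.1, 360.4 and 60.9 RPKM in the 1-week larva, above their 72 hpf levels. In the other direction zgc:174153 was at 59.9 RPKM at 36 hpf, 64.2 at 48 hpf, 23.6 at 60 hpf and 0.34 at 72 hpf, with 191 RPKM in the 15-somite library, and si:dkey-239j18.2 was at 19.4 RPKM at 36 hpf, 10.25 at 48 hpf, 1.87 at 60 hpf and 0.0724 at 72 hpf. Their lowest value of the hatching period was the one at 72 hpf.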

How the data were processed

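Per the labels' protocols, total RNA of about 2000 animals per stage was purified for poly(A) RNA, fragmented and made into SOLiD fragment libraries. The authors deposited 1 table of RPKM values per Ensembl gene and stage, on genome build Zv9 per the submitters' processing notes. Which aligner, counter, annotation and filters were used is not given in the sources used here. Mapped reads and gene lengths were recovered from the RPKM steps, and 83.0% of the 16016 genes gave whole reads over 1 length in 8 libraries (relative tolerance 1e-09). The depth of the 60 hpf library was not recovered. The recovery and the counting were tested on simulated data.

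Differences used a pseudocount of 1 RPKM, with no test. Ratios are of plain RPKM, with exact 95% binomial intervals of the reads, where recovered, that cover counting error only. Symbols matched 12992 of the 16016 genes. Of 58 gene lists and 71 symbol families, those with at least 4 members past the filter were described. A list name absent from the table was matched without its final paralog letter, and then took every gene ID under that symbol. Members and lists were chosen with earlier results of these data known, and family members that only shared a prefix were removed after values were seen. Named genes were the 15 largest differences each way at 10 RPKM or more, up to 4 members each way and the most abundant member of each list, the 5 most abundant genes per library, landmark genes and transcription factors at 5 RPKM or more. Alternatives were another pseudocount, filters, median-of-ratios scaling and rescaling without abundant or mitochondrial genes. Promoter motifs were not examined here, and no sequence is printed. Some genes that the rule would name are not reported here. Python 3.11.15, numpy 2.4.6, pandas 2.3.3 and scipy 1.17.1 were used.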

Additional observations from a re-analysis of the deposited data

How the results depend on the processing

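With a pseudocount of 0.1, 3408 genes were at least 2-fold higher, and 1438 were higher and 113 lower by 4-fold. With a filter of 5 RPKM, 1135 genes were at least 2-fold higher. The other counts of genes apart by 2-fold or 4-fold were within 1.5 times those of the report under these and the other 4 alternatives. Rescaling by the median of gene ratios took 30 named genes inside 2-fold and 7 past it, and no named gene reversed. Rescaling without mitochondrially encoded genes took 7 inside 2-fold, and rescaling without the 100 most abundant genes took 1. No list median of at least 1 in size reversed under any of the 6 alternatives. List and family medians moved past a set margin in 19 cases with a pseudocount of 0.1. They did so in 16 with a filter of 5 RPKM and in 7 with no filter. Smaller medians crossed 0 under median-of-ratios scaling, among them fast muscle (0.01 to -0.15) and vascular endothelium (0.14 to -0.03). No paired analysis was possible because each stage had 1 library. Leaving out a replicate was not possible for the same reason. Depth limits the ratios of genes with few reads at 1 stage, and near-identical gene copies limit the split within families.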
